A study of Homo sapiens with 3 samples.

Results

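The core spliceosome components examined here were 54 genes for proteins of the small nuclear ribonucleoproteins (snRNPs), U2 auxiliary factors and the complexes that join them on the intron. They were found by gene symbol in a table of 58333 genes, all 54 were present, and all 54 passed the filter on low values (a mean of 10 normalized counts over all libraries), which left 20247 genes to test. Expression was measured by RNA-seq of poly(A) RNA in Cal62, a human thyroid cancer cell line grown in DMEM with 10% fetal bovine serum. The cells received 1 of 3 siRNAs in Lipofectamine RNAiMAX, either siControl, a commercial negative control with no intended target, or siADAR1 #1 or siADAR1 #2, which were both designed against ADAR1, an RNA editing enzyme. Each group had 2 libraries, which the methods describe as independent biological replicates, while each transfection is listed as 1 sample in the labels and has 2 columns in the table. All groups came from 1 cell line, no untransfected cells were analysed here, and the time between transfection and RNA isolation was not given in the sources used here. In bulk RNA, fewer cells of a type and less RNA per cell cannot be told apart.

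The spliceosome removes introns from pre-mRNA. U1 snRNP binds the 5′ splice site, the U2AF heterodimer binds the end of the intron, and U2 snRNP then pairs with the branch point, after which the preassembled U4/U6.U5 tri-snRNP joins and is remodelled by helicases into the catalytic machine. Most of these proteins are needed in every cell that splices, and their complexes are assembled from fixed sets of subunits.

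Libraries held 30114840 to 50029763 reads on genes, and a core spliceosome gene had between 572 and 50480 reads in a library. ADAR, the gene that encodes ADAR1, was measured first as a check of the labels. It was at 10906 and 11701 normalized counts in the siControl libraries, 1328 and 2246 with siADAR1 #1 and 1664 and 2928 with siADAR1 #2, so that every siADAR1 library lay below both siControl libraries (log2FC -2.71, adjusted p = 0.00355, and -2.35, adjusted p = 0.00153, limma). Of 8 thyroid markers, 5 passed the filter, and the defining gene NKX2-1 had 0 reads in all libraries and TG at most 55, whereas PAX8 was abundant. The summed level of the thyroid markers was 16286 to 18137 normalized counts in siControl, 12854 to 17806 with siADAR1 #1 and 4681 to 7475 with siADAR1 #2. PAX8 made up most of this sum and fell with siADAR1 #2 (-1.99, adjusted p = 0.00411), as did FOXE1 (-1.21, adjusted p = 0.0231), while HHEX (-0.14) and TSHR (0.47) did not pass, nor did TG, whose mean was 16.9 in siControl and 48.8 with siADAR1 #2. Summed leukocyte markers (5 genes, of which CD14 alone passed) were at 39.8 to 47.9, 124 to 134 and 27.2 to 30.8 in the same order, with CD3E at 0 reads and PTPRC at 5 or fewer in every library. Endothelial markers (4 genes, 2 passing) summed to 38.8 to 69.7, 40.2 to 59 and 45.4 to 62.4, and fibroblast markers (5 genes, of which COL1A1 alone passed) to 5556 to 6854, 3264 to 3899.6 and 2791 to 3874. All 5 epithelial markers passed, with sums of 74103 to 92785, 102317 to 106204 and 67785 to 77725. The share of mitochondrial reads was 3.92 to 6.28% and was higher in replicate 1 than in replicate 2 of every group. The part of these values in the results on spliceosome genes was not tested.

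Promoter sequences are shown first for the 4 genes whose log2FC passed 1 in size with either siRNA, since these genes lead the results. Each sequence is the 250 bases before the listed transcription start nearest to the main transcript's start, 5′ to 3′ in the direction of transcription, from RefSeq (GRCh38.p14), and capitals mark a match to 1 of 3 promoter motifs on either strand.
SNRPD2 (chr19:45691954-45692203, minus strand): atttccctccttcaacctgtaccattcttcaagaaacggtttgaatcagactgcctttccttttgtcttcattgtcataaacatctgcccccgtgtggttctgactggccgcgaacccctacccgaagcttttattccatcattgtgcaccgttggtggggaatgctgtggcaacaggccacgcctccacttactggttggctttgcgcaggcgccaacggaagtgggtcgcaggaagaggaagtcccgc
SF3B5 (chr6:144095574-144095823, minus strand): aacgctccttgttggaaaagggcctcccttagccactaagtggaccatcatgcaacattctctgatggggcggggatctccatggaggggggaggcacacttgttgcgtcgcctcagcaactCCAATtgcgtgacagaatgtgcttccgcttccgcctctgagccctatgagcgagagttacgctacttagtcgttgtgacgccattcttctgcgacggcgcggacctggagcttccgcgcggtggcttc
SNRPA1 (chr15:101295249-101295498, minus strand): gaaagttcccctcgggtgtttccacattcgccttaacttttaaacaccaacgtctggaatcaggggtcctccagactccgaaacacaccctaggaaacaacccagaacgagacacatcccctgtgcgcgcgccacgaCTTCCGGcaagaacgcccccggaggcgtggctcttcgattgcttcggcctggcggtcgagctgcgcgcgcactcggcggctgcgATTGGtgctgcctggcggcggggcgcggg
SF3B6 (chr2:24076327-24076576, minus strand): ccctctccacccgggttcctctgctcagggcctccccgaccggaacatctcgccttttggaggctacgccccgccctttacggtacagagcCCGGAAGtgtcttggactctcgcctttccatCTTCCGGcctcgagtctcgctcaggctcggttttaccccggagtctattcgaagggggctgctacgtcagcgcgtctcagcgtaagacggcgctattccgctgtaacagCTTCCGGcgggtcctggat

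The motifs searched were CCGGAAG, a sequence bound by ETS family factors, CCAAT, bound by NF-Y, and TATAAA, the TATA box. RefSeq promoters matched 50 of the 54 genes, and SF3B3, PRPF3, SNRPD1 and LSM6 had no entry. CCGGAAG or its reverse complement occurred in 26 of the 50 promoters (52%), against 9.07% of 27305 promoters in the table and 15.2% of the 12625 promoters of genes tested. CCAAT occurred in 16 (32%, against 33.1% and 34.7%) and TATAAA in 1 (2%, against 11.1% and 5.79%). The promoters compared were not matched to those of the 54 genes for expression level or GC content. Of the promoters shown, SF3B6 held 3 matches to CCGGAAG, SNRPA1 held 1 together with a CCAAT match on the reverse strand, SF3B5 held CCAAT, and SNRPD2 held none of the 3 motifs. No matches overlapped within them. These matches describe letters in the window and were not tested as binding sites.

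Core spliceosome genes were highly expressed in siControl cells. Per kilobase of exon, the median of the 54 genes was 1432 normalized counts against 92.7 over the genes tested, and all 54 lay above the 50th percentile, from LSM8 at the 53.8th to SNRPD2 at the 98.7th. The length used is that of all annotated exons of a gene, merged over its transcripts, and not that of the transcript expressed. Values per kb compared between genes therefore depend on the annotation. By this measure, levels of partners in 1 complex were not equal. In the Sm ring, the protein ring that all snRNPs except U6 carry around their RNA, SNRPD2 was highest, at 5327 ± 166 per kb, and SNRPD1 lowest, at 1198 ± 74.8 (mean ± SD, n = 2 libraries). In U1 snRNP, SNRPC was at 5287 ± 138 and SNRPA at 1549.7 ± 54.6, and in U2 snRNP the range ran from 5308 ± 144 for SF3B6 to 1008 ± 36.7 for SNRPA1. The widest range was that of the U4/U6 and LSm proteins, 15.0 times between LSM2 at 1828 ± 148 and LSM8 at 122 ± 1.94. That range came from the merged exon lengths, 1059 bases for LSM2 and 17309 for LSM8. Their means were 1936 and 2108 normalized counts. U2AF2 exceeded U2AF1 by 7.64 times per kb (3522 ± 2.38 and 461 ± 91.2), although the reads of U2AF1 can be split with a near-identical copy. Their merged exon lengths also differed, at 4040 bases for U2AF2 and 11095 for U2AF1. In normalized counts the means were 14231 and 5116. Of the U5 and tri-snRNP proteins, PRPF8, the scaffold of the catalytic centre, was highest at 3967 ± 460 and SNRNP40 lowest at 848 ± 72. Among the PRPF19 complex and its partners PRPF19 led at 4621 ± 84.7 and AQR was lowest at 493 ± 43.9, and among the catalytic-step factors the values ran from 1403 ± 155 for DHX15 to 455 ± 50.6 for DHX8. SNRPD2 and SF3B6, next to each other at the top of the order, and SNRPC just below them, differed by less than the SD between libraries.

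**Figure D1:**
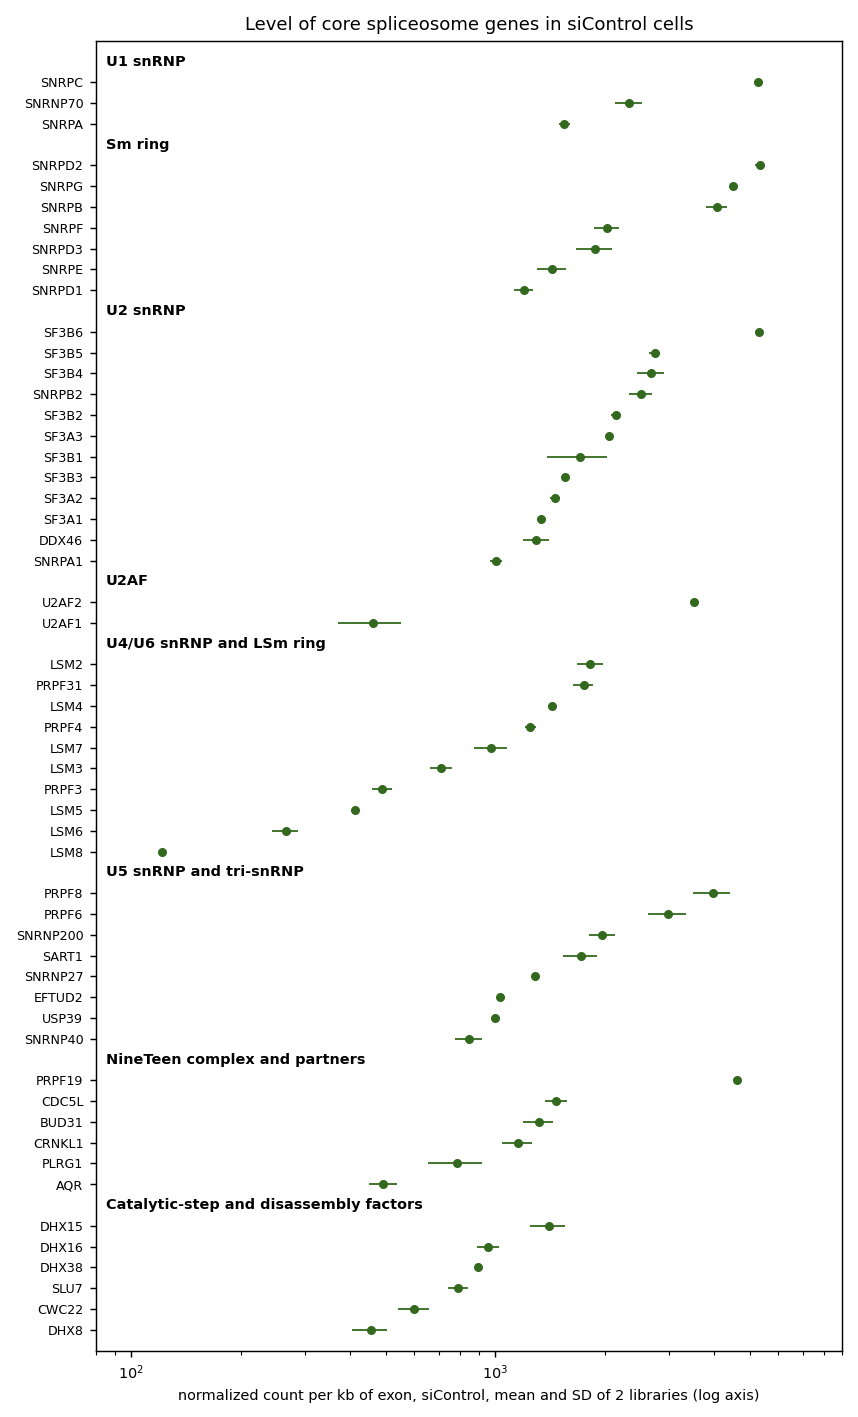
Levels of the 54 genes in siControl cells, as normalized counts per kb of exon (all annotated exons of a gene, merged) on a log axis, grouped by role and ordered within each group. Points are means and lines the SD of 2 libraries. SNRPD2, SF3B6 and SNRPC are highest and LSM8 is lowest.

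The comparison of each siRNA with siControl asked which of these genes changed when ADAR1 was silenced, and the direct comparison of the siRNAs asked whether they changed alike. A gene was called when its adjusted p was under 0.05 and its log2FC was beyond 0.5 in either direction. With siADAR1 #1, 6 of the 54 genes were called (11.1%), against 17.4% of all genes tested. SNRPA1 and PRPF3 rose (3.7%, against 6.39% of all genes called up), and SNRPA, SNRPD2, SF3B3 and SF3B5 fell (7.41%, against 11.0%). With no fold threshold, 11 genes passed (20.4%, against 18.9%), the others being SNRNP70, SNRNP27, DHX16 and SLU7, which were higher, and U2AF2, which was lower. The median log2FC of the 54 genes was 0.09, against -0.03 over all genes tested. The calls with siADAR1 #1 depended on the scaling and on single libraries. Centring each library on its median gave 8 genes up and 3 down (11 calls, where 18.1% of all genes were called) and quantile normalization gave 6 up and 3 down, where the deposited scaling gave 2 up and 4 down. Centring moved the median of all genes from -0.03 to 0.11 in this comparison, from -0.02 to 0.02 with siADAR1 #2 and from -0.01 to 0.10 between the siRNAs, and that of the 54 genes from 0.09 to 0.23, from -0.32 to -0.29 and from 0.37 to 0.47. Without the filter on low values none of the 6 calls was made, where 0.939% of all genes were called. In that fit 18 of the 54 genes had an unadjusted p under 0.05. Without the trend of variance with level 2 were made, SNRPA1 and SNRPD2, where 7.3% of all genes were called. Leaving out siControl replicate 1, siControl replicate 2 or siADAR1 #1 replicate 1 lowered the number of calls, among the 54 genes and among all genes. The median log2FC of the 54 genes was then 0.126, 0.025 and 0.119, against -0.019, -0.059 and -0.018 over all genes. In such fits the lone library was assumed to vary like those of the other groups.

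With siADAR1 #2, 11 of the 54 genes were called and all 11 fell (20.4%, against 16.0% of all genes called down and 27.5% called in either direction). They were SNRPA, SNRPA1, SF3A3, SF3B6, U2AF1, U2AF2, PRPF4, PRPF31, LSM3, LSM5 and SNRNP40. No gene was called up by limma on the deposited values, where 11.6% of all genes were, or by voom. At an unadjusted p under 0.05, 0 of the 54 were higher and 26 were lower. The matching share of all genes was not counted. With no fold threshold 20 of the 54 passed, all lower (37%). Of the 20247 genes tested, 6172 passed in either direction (30.5%), of which 3620 were lower and 2552 were higher. The median log2FC was -0.32, against -0.02 over all genes. Of the 54 values, 45 were below 0, where 10325 of the 20247 genes tested were. Per library, the median over the 54 genes relative to the siControl mean was 0.04 and -0.04 in the siControl libraries, 0.04 and 0.12 with siADAR1 #1, and -0.32 in both siADAR1 #2 libraries, where the pooled SD between replicates was 0.04. The siADAR1 #2 libraries lay below the others in this median, and siADAR1 #1 replicate 1 lay above the higher siControl library by less than the SD. Over all genes tested the same medians lay between -0.04 and 0.04. Quantile normalization left 7 of the 11 calls, without SNRPA1, U2AF1, PRPF31 and SNRNP40, and no filter on low values left 6.

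**Figure D2:**
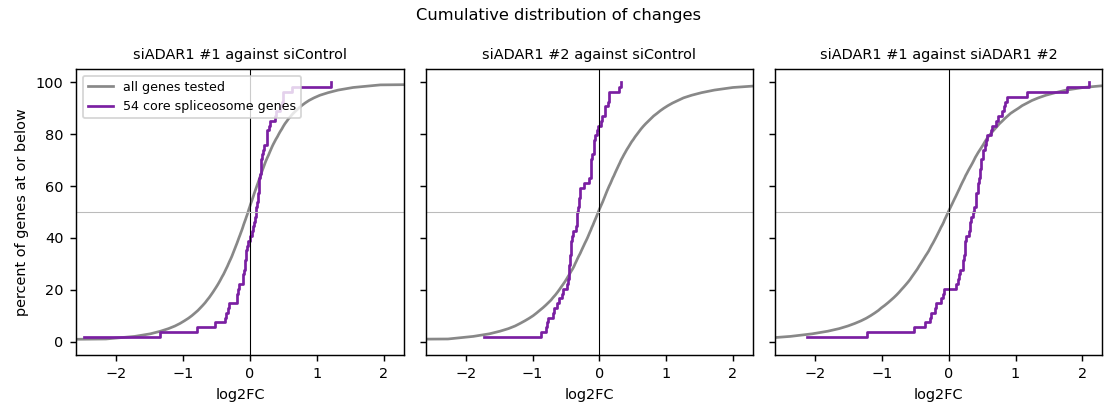
Percent of genes at or below each log2FC, for the 54 core spliceosome genes (purple) and all 20247 genes tested (grey), in the 3 comparisons. The purple line crosses 50% at 0.09, -0.32 and 0.37, and the grey line crosses it at -0.03, -0.02 and -0.01.

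**Figure D3:**
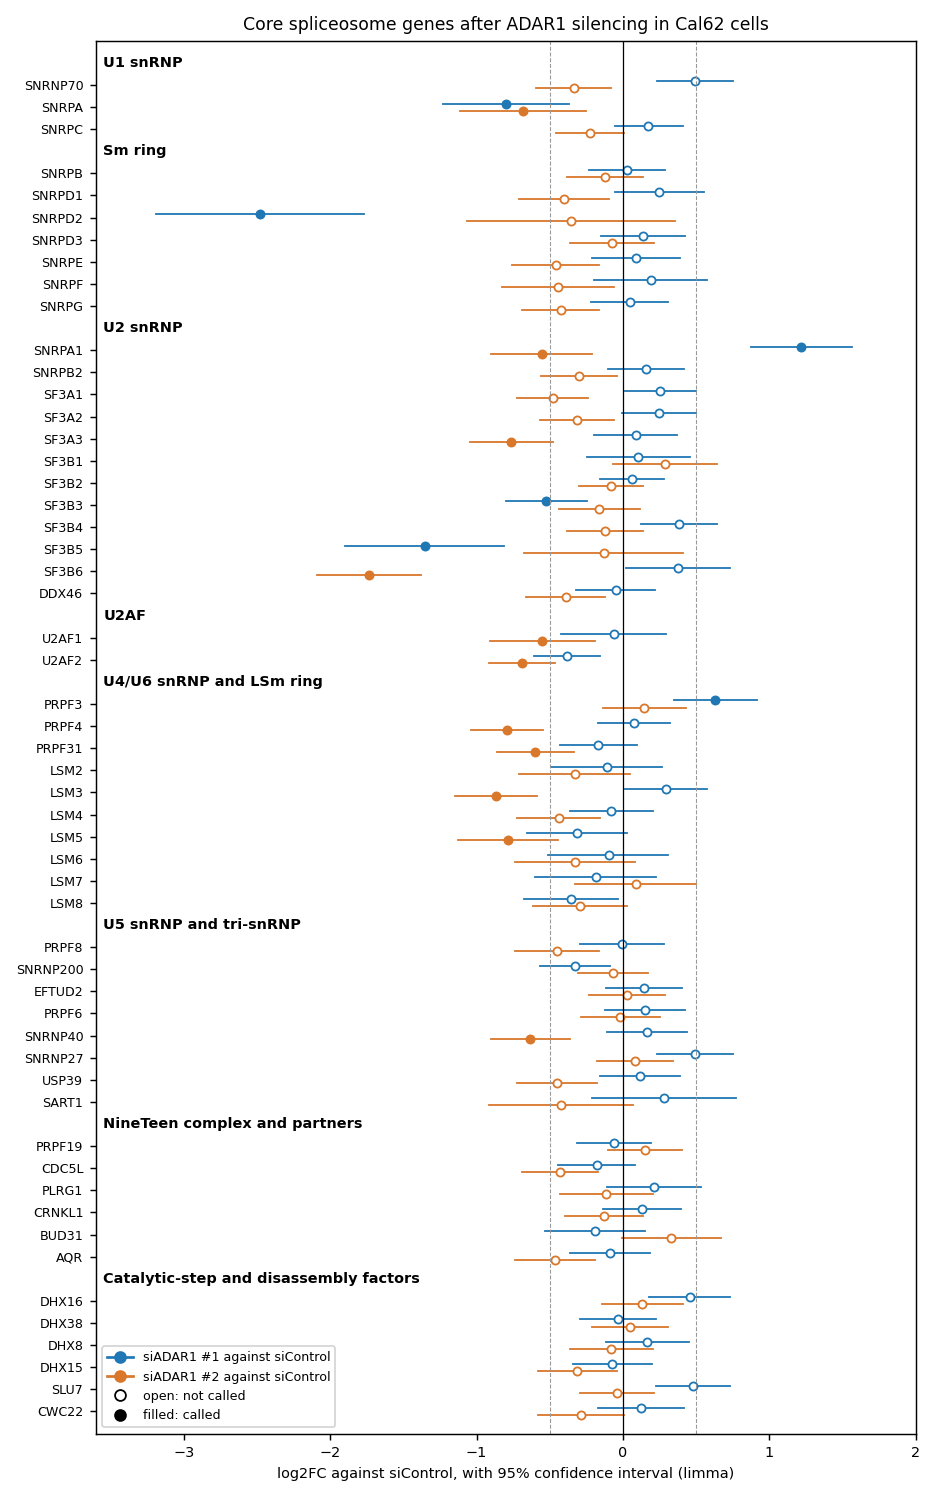
log2FC against siControl of the 54 genes by role, with 95% confidence intervals from limma, for siADAR1 #1 (blue) and siADAR1 #2 (orange). Filled points were called, and dashed lines mark log2FC of -0.5 and 0.5. SNRPD2 and SF3B5 lie far to the left with siADAR1 #1, SF3B6 with siADAR1 #2, and SNRPA1 far to the right with siADAR1 #1.

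Compared directly, siADAR1 #1 and siADAR1 #2 differed in 19 of the 54 genes (35.2%, against 33.7% of all genes). Of these, 16 were higher with siADAR1 #1 (29.6%, against 16.5% of all genes) and 3 were lower, namely SNRPD2, SF3B5 and BUD31 (5.56%, against 17.3%). With no fold threshold 32 differed (59.3%, against 37.6%). The genes tested were not matched to these 54 for level. With a filter at 50 normalized counts, the called shares of all genes were 24.1% with siADAR1 #1, 36% with siADAR1 #2 and 42.5% between the siRNAs. The calls among the 54 stayed at 6, 11 and 19. The median difference was 0.37, against -0.01 over all genes. Of the 54 differences, 11 were below 0, where 10196 of the 20247 genes tested were. The comparisons with siControl share the siControl libraries, so their values are given side by side below, and only the direct comparison tests a difference between the siRNAs. In all, 26 genes were called in at least 1 of the 3 comparisons and 28 in none. The share of all genes called in at least 1 comparison was not counted, so these counts are not a result about the 54 genes.

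The U1 proteins bind U1 RNA and the 5′ splice site. SNRPA, the A protein of U1 snRNP, which binds a stem-loop of U1 RNA, fell with each siRNA. It lies at chr19:40750637-40765389, plus strand (GRCh38 and GENCODE 44, as for all gene positions here), and was at 3737 and 3556 normalized counts in siControl, 1732 and 2532 with siADAR1 #1 and 2120.5 and 2423 with siADAR1 #2, so that the 4 siADAR1 libraries were below both siControl libraries and overlapped each other. The log2FC was -0.80 (95% CI -1.23 to -0.37, adjusted p = 0.0241) with siADAR1 #1 and -0.69 (95% CI -1.12 to -0.25, adjusted p = 0.0273) with siADAR1 #2. The difference between the siRNAs was -0.11 (95% CI -0.55 to 0.32). SNRNP70, the U1-70K protein, was at 11567 and 10244 in siControl, 16019 and 14599 with siADAR1 #1 and 8764 and 8465 with siADAR1 #2, in 3 groups that did not overlap. Its values against siControl were within the fold threshold with siADAR1 #1 (0.49, adjusted p = 0.0223) and did not pass with siADAR1 #2 (-0.34, adjusted p = 0.0544), and it was called between the siRNAs (0.83, adjusted p = 0.00129). SNRPC, the C protein of U1 snRNP, had log2FC 0.17 and -0.23, and neither passed. The calls of SNRPA depended on single libraries. With siADAR1 #1 its adjusted p was 0.137 without siControl replicate 1, 0.105 without siControl replicate 2 and 0.0901 without siADAR1 #1 replicate 1, and with siADAR1 #2 it was 0.138 and 0.101 without siControl replicates 1 and 2 and 0.145 and 0.0569 without siADAR1 #2 replicates 1 and 2, with log2FC from -0.84 to -0.53 throughout.

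Of the 7 Sm ring genes, only SNRPD2 was called against siControl, and it fell with siADAR1 #1. SNRPD2 encodes SmD2, which sits next to SmD1 in the ring. The gene (chr19:45687460-45692569, minus strand) was at 7845 and 7507 normalized counts in siControl, 930.5 and 2022 with siADAR1 #1 and 5885 and 6130.1 with siADAR1 #2. Both siADAR1 #1 libraries were far below the other 4, and the siADAR1 #2 libraries were below siControl by less. The mean with siADAR1 #1 was 19.2% of siControl (log2FC -2.48, 95% CI -3.19 to -1.77, adjusted p = 0.004), that with siADAR1 #2 was 78.3% (-0.35, 95% CI -1.06 to 0.36, adjusted p = 0.43), and the difference between the siRNAs was -2.13 (95% CI -2.84 to -1.42, adjusted p = 0.00166). Without siControl replicate 1 the log2FC with siADAR1 #1 was -2.45 and its adjusted p 0.0558. Set against the median of the other 6 ring genes, per kb, SNRPD2 stood at 2.76 and 2.69 in the siControl libraries, 0.326 and 0.581 with siADAR1 #1 and 2.50 and 2.60 with siADAR1 #2. Per kb of merged exon, SNRPD2 was therefore the highest ring gene in siControl and below the median of its partners in both siADAR1 #1 libraries. These positions depend on the exon lengths. By normalized counts alone, SNRPB (mean 20971) and SNRPG (7963) were above SNRPD2 (7676) in siControl.

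The other 6 Sm genes had log2FC from 0.03 (SNRPB) to 0.25 (SNRPD1) with siADAR1 #1 and from -0.46 (SNRPE) to -0.08 (SNRPD3) with siADAR1 #2. With siADAR1 #2 no Sm gene was called by limma or by voom, and 4 of 7 had an unadjusted p under 0.05, all lower, of which SNRPE and SNRPG also passed the adjusted p. SNRPD1, SNRPE and SNRPF were called between the siRNAs. SNRPD1 was at 5568 and 6082 in siControl, 6238 and 7668 with siADAR1 #1 and 4256 and 4538 with siADAR1 #2 (difference 0.65, adjusted p = 0.0069). It was highest in the siADAR1 #1 libraries and lowest in the siADAR1 #2 libraries, with no overlap. SNRPE was at 3172 and 2787, 3274 and 3055 and 2042 and 2288 in the same order (0.55, adjusted p = 0.0126), and SNRPF at 4628 and 5171, 4778 and 6513 and 3378 and 3822 (0.63, adjusted p = 0.0195). For both, the siADAR1 #1 libraries overlapped siControl and the siADAR1 #2 libraries lay below. The calls of SNRPE and SNRPF were lost without siADAR1 #2 replicate 1 (adjusted p 0.0857 and 0.11), that of SNRPE also without siADAR1 #1 replicate 1 (0.058), and that of SNRPF without siADAR1 #1 replicate 2 (0.0807). That of SNRPE was also within the fold threshold after quantile normalization or a correction for GC content and exon length. SNRPB shares near-identical sequence with SNRPN, which had 3575 to 4729 reads, so its values are uncertain to that extent.

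U2 snRNP, which recognizes the branch point, held SNRPA1, the only core spliceosome gene called up with siADAR1 #1 and down with siADAR1 #2. Opposite signs of log2FC with the siRNAs also occurred outside U2 snRNP, as in SNRNP70, SNRPD1, LSM3 and SNRNP40. SNRPA1 encodes the A′ protein of U2 snRNP, a leucine-rich protein that binds U2 RNA together with the B″ protein. It lies at chr15:101281510-101295282, minus strand, and was at 3792 and 3602 normalized counts in siControl, 8739.9 and 8455 with siADAR1 #1 and 2892 and 2182 with siADAR1 #2. All 3 groups were apart, with siADAR1 #1 at the top. Its level rose to 233% of siControl with siADAR1 #1 (log2FC 1.22, 95% CI 0.87 to 1.56, adjusted p = 0.00391) and fell to 68.6% with siADAR1 #2 (-0.56, 95% CI -0.90 to -0.21, adjusted p = 0.0255), with a difference of 1.77 (95% CI 1.43 to 2.12, adjusted p = 0.000293). The fall with siADAR1 #2 was not called without siControl replicate 1 (-0.52, adjusted p 0.127), siControl replicate 2 (-0.59, 0.0853) or siADAR1 #2 replicate 2 (-0.35, 0.13), or after centring or quantile normalization, while the rise and the difference kept their calls when any library was left out. Its partner SNRPB2, which encodes the B″ protein, had log2FC 0.16 and -0.30, and neither passed.

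The SF3b complex clamps the branch point helix, and 3 of its small or scaffold subunits were called with a single siRNA. SF3B6, the subunit that contacts the branch point adenosine in early complexes, lies at chr2:24067586-24076373, minus strand, and was at 6086 and 5858 normalized counts in siControl, 7487 and 7988 with siADAR1 #1 and 1547 and 2081 with siADAR1 #2. Both siADAR1 #2 libraries were far below the other 4. Its level fell to 30.4% of siControl with siADAR1 #2 (log2FC -1.73, 95% CI -2.09 to -1.38, adjusted p = 0.000481), did not pass with siADAR1 #1 (0.37, 95% CI 0.02 to 0.73, adjusted p = 0.133), and differed by 2.11 between the siRNAs (adjusted p = 0.00021). Among these 54 genes it had the smallest adjusted p with siADAR1 #2 and between the siRNAs.

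SF3B5, a small subunit that bridges SF3B1 and SF3B3, showed the reverse. It lies at chr6:144094884-144095573, minus strand, and was at 1942 and 1849 in siControl, 567 and 965 with siADAR1 #1 and 1809.8 and 1655 with siADAR1 #2, where the siADAR1 #1 libraries were lowest and differed from each other. Its level fell to 40.4% with siADAR1 #1 (log2FC -1.35, 95% CI -1.90 to -0.81, adjusted p = 0.0097), was at 91.4% with siADAR1 #2 (-0.13, adjusted p = 0.718), and differed by -1.22 (adjusted p = 0.00542). SF3B3, a large scaffold subunit at chr16:70523791-70577670, plus strand, was at 19294 and 19261 in siControl, 12121 and 14815 with siADAR1 #1 and 16975 and 17485 with siADAR1 #2. It fell with siADAR1 #1 (log2FC -0.53, 95% CI -0.80 to -0.25, adjusted p = 0.0227) to just beyond the fold threshold, and was -0.16 with siADAR1 #2 (adjusted p = 0.351). These calls with siADAR1 #1 were lost without siControl replicate 1 (SF3B5 at -1.32 with adjusted p 0.0827, SF3B3 at -0.52 with 0.106) and without siControl replicate 2 (-1.39 with 0.0646, -0.53 with 0.0936), and that of SF3B3 also without siADAR1 #1 replicate 1 (-0.38, 0.124) and after centring, quantile normalization or a correction for GC content and exon length.

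Against the median of the other 11 U2 genes per kb, SF3B5 stood at 1.45 and 1.73 in siControl, 0.398 and 0.632 with siADAR1 #1 and 1.92 and 1.70 with siADAR1 #2. SF3B6 stood at 2.80 and 3.36, 3.34 and 4.25, and 1.01 and 1.31 in the same order, and SNRPA1 at 0.509 and 0.475, 1.197 and 1.38, and 0.573 and 0.322. The order of values per kb within U2 snRNP thus differed between the siRNAs. SNRPA1 was the lowest of the 12 per kb in siControl and above the median of its partners in both siADAR1 #1 libraries. These positions depend on the merged exon lengths. By normalized counts alone, SF3B5 (mean 1895) was below SNRPA1 (3697) in siControl.

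Of the SF3a complex, 3 proteins that tie SF3b to the rest of U2 snRNP, SF3A3 fell with siADAR1 #2. SF3A3 (chr1:37956975-37990075, minus strand) was at 7912 and 8048 in siControl, 8031 and 8932 with siADAR1 #1 and 4325 and 5109 with siADAR1 #2. It fell to 59.1% of siControl with siADAR1 #2 (log2FC -0.76, 95% CI -1.05 to -0.48, adjusted p = 0.00341), and was 0.09 with siADAR1 #1 (adjusted p = 0.675). SF3A1 was at 8269.7 and 8561, 10025 and 10047 and 6338 and 5743, and SF3A2 at 4161 and 3979.9, 5007 and 4665 and 3201 and 3347. For both, the siADAR1 #1 libraries were above siControl and the siADAR1 #2 libraries below. With siADAR1 #2, SF3A1 passed the adjusted p within the fold threshold (-0.48, adjusted p = 0.0117) and SF3A2 did not pass (-0.31, adjusted p = 0.0652). All 3 were called between the siRNAs, by 0.73 for SF3A1 (adjusted p = 0.0016), 0.56 for SF3A2 (adjusted p = 0.00581) and 0.85 for SF3A3 (adjusted p = 0.00169), and that of SF3A2 was within the fold threshold after quantile normalization.

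Of the remaining U2 genes, SF3B4 was at 4851 and 4293, 6037 and 5880.0 and 4123 and 4252 and was called between the siRNAs (0.51, adjusted p = 0.00989), a call lost without siADAR1 #1 replicate 1 (0.49) or siADAR1 #2 replicate 1 (0.49, adjusted p 0.0636), or after quantile normalization. SF3B1, the subunit that surrounds the branch helix, was at 20162 and 15469, 20743 and 17393 and 22334 and 20804 and passed in no comparison. SF3B2 passed in none either, with log2FC 0.06 and -0.08. DDX46, a helicase that acts on U2 snRNP before it pairs, passed the adjusted p with siADAR1 #2 within the fold threshold (-0.39, adjusted p = 0.0388).

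Both U2AF subunits fell with siADAR1 #2. U2AF2, which binds the polypyrimidine tract, lies at chr19:55654146-55674716, plus strand and was at 14224 and 14238 normalized counts in siControl, 10637 and 11246 with siADAR1 #1 and 8803 and 8868 with siADAR1 #2. The groups were apart, with siADAR1 #1 in between. Its log2FC was -0.69 with siADAR1 #2 (95% CI -0.91 to -0.46, adjusted p = 0.00209) and -0.38 with siADAR1 #1, which passed the adjusted p within the fold threshold (95% CI -0.60 to -0.15, adjusted p = 0.033). U2AF1, which binds the AG at the end of the intron, lies at chr21:43092956-43107570, minus strand, and was at 5832 and 4400.2, 4810.4 and 4881 and 3692 and 3236, with siControl libraries that differed from each other more than the siADAR1 #1 libraries did. It had log2FC -0.55 with siADAR1 #2 (95% CI -0.91 to -0.19, adjusted p = 0.0306) and -0.06 with siADAR1 #1 (adjusted p = 0.816). Its call was lost without siControl replicate 1 (-0.35, adjusted p 0.157), siADAR1 #2 replicate 1 (-0.65, 0.0722) or siADAR1 #2 replicate 2 (-0.46, 0.146), after quantile normalization and after a correction for GC content and exon length. Neither subunit was called between the siRNAs, by limma or by voom, although both differences had an adjusted p under 0.05 (0.49 and 0.31).

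**Figure D4:**
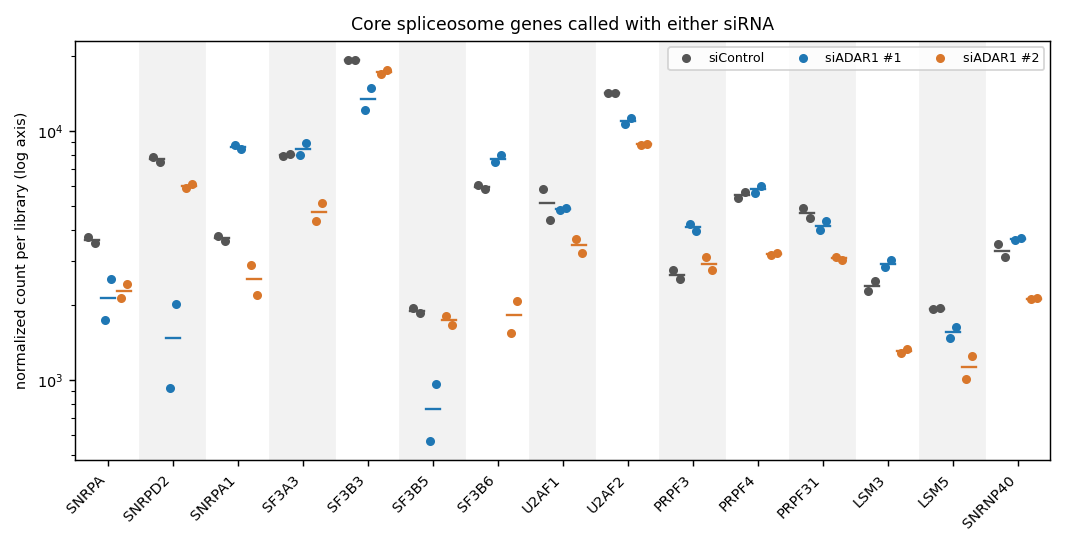
Normalized counts, on a log axis, of each library for the 15 core spliceosome genes called with either siRNA. Points are libraries and bars are means of 2 libraries, in grey for siControl, blue for siADAR1 #1 and orange for siADAR1 #2. SNRPD2 and SF3B5 are lowest in blue, SF3B6 and LSM3 are lowest in orange, and SNRPA1 is highest in blue.

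Among the 10 genes of U4/U6 snRNP and the LSm ring, which binds the end of U6 RNA, 4 fell with siADAR1 #2 (40%, against 16.0% of all genes called down) and 1 rose with siADAR1 #1 (10%, against 6.39% called up). PRPF3, PRPF4 and PRPF31 are proteins of the U4/U6 particle. PRPF4 (chr9:113275642-113294009, plus strand) was at 5381 and 5663 in siControl, 5646 and 5989 with siADAR1 #1 and 3157 and 3217 with siADAR1 #2 (log2FC with siADAR1 #2 -0.79, 95% CI -1.04 to -0.55, adjusted p = 0.00172). PRPF31 (chr19:54115410-54131719, plus strand) was at 4882 and 4473, 4002 and 4324 and 3126 and 3039 (-0.60, 95% CI -0.86 to -0.34, adjusted p = 0.00644). For both genes the siADAR1 #2 libraries lay below all others. PRPF31 shares 22.0% of its exon bases with an antisense RNA and 9.3% with TFPT, and whether the counting used strand was not given in the sources used here. PRPF3 (chr1:150321479-150353233, plus strand), which forms a pair with PRPF4, moved otherwise. It was at 2765 and 2529.5 in siControl, 4239 and 3957 with siADAR1 #1 and 3101 and 2758 with siADAR1 #2, and rose with siADAR1 #1 (0.63, 95% CI 0.35 to 0.91, adjusted p = 0.0137), a call lost without siControl replicate 1 (adjusted p 0.0675), siControl replicate 2 (0.0803) or siADAR1 #1 replicate 1 (0.0719). The direct difference was called for PRPF4 (0.87, adjusted p = 0.000894) and lay within the fold threshold for PRPF3 (0.48, adjusted p = 0.017) and PRPF31 (0.43, adjusted p = 0.0196).

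LSM3 and LSM5 fell with siADAR1 #2. Both proteins belong to the nuclear ring on U6 RNA and to the cytoplasmic ring that takes part in mRNA decay. LSM3 (chr3:14178817-14201122, plus strand) was at 2277 and 2502 in siControl, 2848 and 3014 with siADAR1 #1 and 1282 and 1328 with siADAR1 #2, with the siADAR1 #2 libraries at the bottom and the siADAR1 #1 libraries at the top. Its level was 54.6% of siControl with siADAR1 #2 (log2FC -0.87, 95% CI -1.15 to -0.59, adjusted p = 0.00195), 0.29 on the log2 scale with siADAR1 #1 (adjusted p = 0.132), and it differed by 1.17 between the siRNAs (adjusted p = 0.000536). LSM5 (chr7:32485338-32495283, minus strand) was at 1921 and 1939, 1478 and 1632 and 1004 and 1244, in groups that did not overlap (with siADAR1 #2 -0.79, 95% CI -1.13 to -0.45, adjusted p = 0.0063, and with siADAR1 #1 -0.31, adjusted p = 0.185). The other 5 ring genes were not called. LSM4 passed the adjusted p with siADAR1 #2 within the fold threshold (-0.44, adjusted p = 0.0303). LSM2 and LSM6 had log2FC -0.33 and -0.33 with siADAR1 #2, LSM7 had 0.09, and LSM8, the subunit particular to the nuclear ring, had -0.29, where none passed. LSM8 was at 2084 and 2132 normalized counts in siControl, 1500.0 and 1805 with siADAR1 #1 and 1638 and 1805 with siADAR1 #2, and LSM2 was at 1825 and 2046, 1623 and 1973 and 1381 and 1711.

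In the 8 genes of U5 snRNP and the tri-snRNP, SNRNP40 was the gene called against siControl. SNRNP40 encodes the U5-40K protein, a WD-repeat protein bound to PRPF8. It lies at chr1:31259568-31296788, minus strand, and was at 3494 and 3099 in siControl, 3657 and 3717 with siADAR1 #1 and 2110.3 and 2128 with siADAR1 #2 (with siADAR1 #2 -0.63, 95% CI -0.90 to -0.36, adjusted p = 0.00582). Its difference between the siRNAs was 0.80 (adjusted p = 0.00175). PRPF8 was at 49349 and 41871, 47206 and 43524 and 35639 and 31124, and its siADAR1 #2 value passed the adjusted p within the fold threshold (-0.45, adjusted p = 0.0291). SNRNP200, the helicase that unwinds U4 from U6, was at 23316 and 20791, 17344 and 17746 and 21427 and 20559.5, lower in the siADAR1 #1 libraries by an amount that did not pass (-0.33, adjusted p = 0.0635). The GTPase EFTUD2 and the bridging protein PRPF6 passed in no comparison, with log2FC against siControl between -0.02 and 0.15. No gene of this group was called with siADAR1 #1 by limma or by voom, where 2 of 8 had an unadjusted p under 0.05, SNRNP200 lower and SNRNP27 higher.

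USP39 and SART1, tri-snRNP proteins, were called between the siRNAs. USP39 was at 4016 and 3896 in siControl, 4018 and 4571 with siADAR1 #1 and 2840.5 and 2949 with siADAR1 #2 (difference 0.57, adjusted p = 0.0074), and the call was lost without siADAR1 #1 replicate 2 (0.47) or siADAR1 #2 replicate 1 (adjusted p 0.0509), or after quantile normalization. SART1 was at 8486 and 7288, 8190.1 and 11152 and 7061 and 4876 (0.70, 95% CI 0.21 to 1.19, adjusted p = 0.0333). Its replicates were far apart in both siADAR1 groups, and its adjusted p was 0.16 without siADAR1 #1 replicate 2, 0.178 without siADAR1 #2 replicate 2, and 0.0599 and 0.0602 without siControl replicates 1 and 2. SNRNP27 passed the adjusted p with siADAR1 #1 within the fold threshold (0.49, adjusted p = 0.0223). It shares 12.5% of its exon bases with MXD1 on the same strand. The mean of MXD1 was 1044 normalized counts in siControl, 1934 with siADAR1 #1 and 3631 with siADAR1 #2.

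The PRPF19 complex, which stabilizes the active spliceosome, and its partners showed no call against siControl with either siRNA. By voom there was none either, and the unadjusted p was under 0.05 for 0 of 6 genes with siADAR1 #1 and for 2 with siADAR1 #2, CDC5L (-0.43, adjusted p = 0.0234) and AQR (-0.46, adjusted p = 0.021), both lower. PRPF19, the ubiquitin ligase at its centre, was at 13662 and 13313 in siControl, 12028 and 13894 with siADAR1 #1 and 15305 and 14627 with siADAR1 #2. Its changes were -0.06 (95% CI -0.32 to 0.19) and 0.15 (95% CI -0.10 to 0.40). AQR, the intron-binding helicase, was at 7038 and 6204, 6484 and 5953 and 4637 and 4951, and PLRG1 and CRNKL1 passed in no comparison against siControl. BUD31 was at 3333 and 2916, 2483 and 2995 and 4226 and 3643, and was lower with siADAR1 #1 than with siADAR1 #2 (-0.53, adjusted p = 0.0256). That call was lost without siADAR1 #1 replicate 1 (-0.39, adjusted p 0.124) or siADAR1 #2 replicate 1 (-0.42, 0.149), after centring and after a correction for GC content and exon length, and BUD31 shares 38.7% of its exon bases with PTCD1 on the opposite strand.

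None of the 6 helicases and factors of the catalytic steps was called against siControl with either siRNA by limma or by voom, and at an unadjusted p under 0.05 there were 2 with siADAR1 #1, DHX16 and SLU7, and 1 with siADAR1 #2, DHX15. DHX16, which starts the first catalytic step, had log2FC 0.46 (adjusted p = 0.0352) with siADAR1 #1. SLU7, which helps to choose the 3′ splice site, was at 3944 and 3605 in siControl, 5198 and 5318 with siADAR1 #1 and 3693 and 3640.0 with siADAR1 #2, with log2FC 0.48 (adjusted p = 0.0223) with siADAR1 #1 and a called difference between the siRNAs of 0.52 (adjusted p = 0.00799) that quantile normalization or a correction for GC content and exon length brought within the fold threshold. DHX8, which releases the spliced mRNA, was at 5276 and 4506, 5276 and 5664 and 4464 and 4758. DHX15, which takes the spent spliceosome apart, was at 12354 and 10563, 11114 and 10609 and 9531 and 8900.0, and its siADAR1 #2 value did not pass after adjustment (-0.31, adjusted p = 0.0801). DHX38, the helicase of the second step, and CWC22 passed in no comparison with siControl. Over the 28 genes called nowhere, log2FC ran from -0.36 (LSM8) to 0.49 (SNRNP27) with siADAR1 #1 and from -0.46 (AQR) to 0.29 (SF3B1) with siADAR1 #2.

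Other genes of the pathway were counted from lists drawn up by function. Of 69 further spliceosome proteins, 8 rose and 4 fell with siADAR1 #1 (17.4%, the same share as over all genes), and 3 rose and 14 fell with siADAR1 #2 (24.6%, against 27.5%), with medians of 0.04 and -0.12. With siADAR1 #1 the smallest adjusted p belonged to FAM32A (1.01, adjusted p = 0.0041), CHERP (-0.94, adjusted p = 0.00471) and SYF2 (0.91, adjusted p = 0.00587). With siADAR1 #2 it belonged to RBM10, a regulator of exon inclusion (-1.65, adjusted p = 0.000566), CWF19L1 (-1.14, adjusted p = 0.000696) and PHF5A, the SF3b subunit that completes the branch point pocket (-1.16, adjusted p = 0.001). PHF5A was at 3561 and 3043 in siControl, 3209 and 3648 with siADAR1 #1 and 1471 and 1474 with siADAR1 #2, where the siADAR1 #2 libraries were below the other 4.

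Of 12 proteins of the minor spliceosome, which removes the rare U12-type introns, 3 rose and 1 fell with siADAR1 #1 (33.3%, against 17.4% of all genes) and 2 fell with siADAR1 #2 (16.7%, against 27.5%). Those with the smallest adjusted p were SNRNP48, SCNM1 and RBM48 with siADAR1 #1 (0.76, 0.69 and 0.68, adjusted p = 0.00663, 0.0168 and 0.0196), and SNRNP25 and ZMAT5, which fell, and RBM48, within the fold threshold, with siADAR1 #2 (-0.77, -1.16 and 0.50, adjusted p = 0.00282, 0.00882 and 0.0382). Of 19 genes for the assembly of snRNPs, none was called with siADAR1 #1 by limma and 1 by voom, and 5 had an unadjusted p under 0.05. With siADAR1 #2, 1 rose and 5 fell (31.6%, against 27.5%), led by GEMIN5, which recognizes snRNA for the assembly complex (-1.07, adjusted p = 0.00124), COIL, the coilin of Cajal bodies (-0.95, adjusted p = 0.00535), and GEMIN6 (-0.70, adjusted p = 0.00863). With siADAR1 #1 the 3 smallest adjusted p were those of SMN2, which shares nearly all its sequence with SMN1 and is uncertain (0.45, adjusted p = 0.0433), GEMIN6 (-0.48, adjusted p = 0.05) and COIL (0.56, adjusted p = 0.058).

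Reads of overlapping genes cannot be told apart where they share exons on the same strand, nor on opposite strands if strand was not used in counting. In GENCODE 44, 21 of the 54 genes share exon bases with another gene, 10 of them among the 26 called in at least 1 comparison. Processed pseudogenes of these genes held at most 65 reads in a library, summed over the pseudogenes of 1 gene.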

How the data were processed

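Poly(A) RNA of Cal62 cells was sequenced with 75-bp paired-end reads, 2 libraries for each of 3 transfections. The authors trimmed reads with Atropos and counted them per gene with featureCounts in bcbio-nextgen (FastQC and Salmon are also named in the submitters' notes). For normalization with DESeq2, the paper's methods state a preference for gene counts that Tximport estimated from Salmon. The paper does not state which of these counts the deposited values came from. The deposited log2 values are a variance-stabilizing transformation, made by the authors with DESeq2, of counts divided by size factors. The genome annotation release and the strand setting of the counting were not given in the sources used here. Undoing the transformation gave whole reads for 100% of the values within 0.1, from 30114840 to 50029763 reads per library. A count of 0 allows up to 3 reads, which covers counting error only. Symbols, positions (GRCh38) and exon lengths came from GENCODE 44 (57830 of 58333 genes matched and 503 did not). An exon length counts each base in any annotated exon of the gene, over all its transcripts.

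Log2 values were tested with limma 3.58.1 in R 4.3.3 (lmFit on all 3 groups, eBayes with a trend) over 20247 genes with a mean of at least 10 normalized counts, and p-values were adjusted by Benjamini-Hochberg over all of them. Residual degrees of freedom were 3 and the prior added 4.61. Intervals are 95% confidence intervals from the same fit. A gene was called at an adjusted p under 0.05 and a log2FC beyond 0.5. With 2 libraries per group, p-values measure the spread between these libraries, and an exact permutation test of single genes was not used. Replicate differences of same-numbered libraries correlated at 0.111, 0.13 and 0.15 over 20247 genes, so the numbers were treated as pairing the libraries in an alternative with a replicate block. The other alternatives were other filters and scalings, other moderation of the variance, 4 libraries only, each library left out, voom run on whole reads, a plain log2 with a pseudocount of 1, a correction for GC content and length, and no fold threshold. Members and gene lists were chosen with earlier results of these data known. Any of the 54 genes could be named, with values in every library for those called in at least 1 comparison and for the highest and lowest of each role per kb in siControl, and of each further list the 3 genes with the smallest adjusted p against siControl were named. MXD1, PTCD1 and TFPT, which share exons with these genes, and PHF5A's library values were chosen after values were seen. A further thyroid marker is not reported here and is not in the summed levels. Promoters were searched with Python 3.11.15, numpy 2.4.6 and pandas 2.3.3, and figures were drawn with matplotlib 3.10.9. The fit was tested on simulated data.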

Additional observations from a re-analysis of the deposited data

Results flagged for a closer look

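Several genes differed between siADAR1 #1 and siADAR1 #2 in the direct limma comparison, and these are given as siADAR1 #1 minus siADAR1 #2 on the log2 scale, with an adjusted p under 0.05 for each. SNRPD2 (-2.13), SF3B5 (-1.22) and BUD31 (-0.53) were lower with siADAR1 #1. In U1 snRNP and the Sm ring, SNRNP70 (0.83), SNRPD1 (0.65), SNRPE (0.55) and SNRPF (0.63) were higher. In U2 snRNP, SNRPA1 (1.77), SF3A1 (0.73), SF3A2 (0.56), SF3A3 (0.85), SF3B4 (0.51) and SF3B6 (2.11) were higher. In the tri-snRNP and the catalytic steps, PRPF4 (0.87), LSM3 (1.17), SNRNP40 (0.80), USP39 (0.57), SART1 (0.70) and SLU7 (0.52) were higher. With 2 libraries per group, no group was large enough for a search for single outlying libraries.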

How the results depend on the processing

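Of 36 called values of core spliceosome genes, 12 were called under each of 17 alternatives, and none changed sign. With siADAR1 #1, the 6 calls became 0 without the filter on low values (18 genes at an unadjusted p under 0.05), 11 with libraries centred, 2 without the variance trend and 11 without the fold threshold, and 1 to 7 with a library left out. The median of 0.09 became 0.23 with centring and 0.16 with quantile normalization, and lay between 0.025 and 0.126 with a library left out. With siADAR1 #2, the 11 calls became 6 without the filter, 7 with quantile normalization and 20 without the fold threshold, and 8 to 11 with a library left out, and the median of -0.32 became -0.18 with quantile normalization and lay between -0.37 and -0.27 with a library left out. Between the siRNAs, the 19 calls became 11 without the filter and 32 without the fold threshold, and 15 to 19 with a library left out, and the median of 0.37 became 0.47 with centring and 0.28 with quantile normalization. Over all genes tested, the called shares of the main fit were 17.4%, 27.5% and 33.7% in the 3 comparisons, in the same order. They were 0.939%, 3.61% and 5.52% without the filter, and 18.9%, 30.5% and 37.6% without the fold threshold. Quantile normalization gave 17.4%, 27.4% and 33.9%, and centring gave 18.1%, 27.4% and 34.8%. Without the variance trend the share with siADAR1 #1 was 7.3%. With a library left out these shares changed too. The filter changes how many genes share the adjustment and the variance estimate, and the cause of the other shifts was not tested. The replicate block changed no call (6, 11 and 19 genes). Over uncalled values, 22 gained a call and 33 changed sign under at least 1 alternative. Depth did not leave any of these genes at 0, and the number of libraries limits the precision.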
